A study of Mus musculus with 8 samples.

Results

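The mitochondrial ribosomal proteins are the proteins of the ribosome inside mitochondria, and the genes described here are the 76 protein-coding genes whose symbol starts with Mrpl or Mrps and a digit, of 29037 genes in the deposited table. The rule uses names and biotypes, not measured values, but the family was picked with earlier results of these data known. Of these genes, 48 carry the Mrpl name of the large subunit and 28 the Mrps name of the small subunit. All 76 passed the filter on low values, and their coordinates equal those of GENCODE M21 on the mouse build GRCm38. Mrpl53 and Mrps10 were not analysed here. The 4 processed pseudogenes with such names, copies of Mrpl23, Mrpl48 and Mrps36, were left out.

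Mitochondria make the core subunits of the respiratory chain on their own ribosome. Its ribosomal RNAs are encoded in the mitochondrial genome, whereas its proteins are encoded in the nucleus, made in the cytosol and imported. Many of them descend from bacterial ribosomal proteins, and others were added during the evolution of mitochondria. In the intestinal crypt, where stem cells and their progeny divide, mitochondrial respiration is known to bear on stem cell function and differentiation.

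The study sequenced RNA from intestinal crypts of mice aged 8 weeks. One group was 4 conditional knockouts of Tdp-43 (cKO), an RNA-binding protein encoded by Tardbp, and the other was 4 littermates labelled WT (Ctrl), each library standing for 1 mouse. Neither the driver of the knockout nor the deleted part of Tardbp is stated in the labels. The title puts mitochondria at the centre of the intestinal inflammation it describes, and the comparison addresses which genes differ in the crypts when Tdp-43 is targeted.

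The libraries held 21517596 to 29992110 reads on genes, of which the members took between 0.278% and 0.334%. Values are gene counts that the authors divided by 1 factor per library, called normalized counts here, and group levels are means ± SD of 4 libraries. Log2 fold changes are cKO over Ctrl ± SE on the log2(value + 1) scale, with limma's p adjusted by the Benjamini-Hochberg method over 16536 tested genes. A gene is called higher or lower where that adjusted p is under 0.05. Tardbp was higher in the libraries labelled cKO (11982 ± 1013, against 5666 ± 772; log2 fold change 1.09 ± 0.11, adjusted p = 0.00209), a value that covers the whole gene and checks nothing about the deletion. Summed crypt epithelium markers ranged from 413076 to 510301 normalized counts in Ctrl and from 405939 to 481098 in cKO, with Olfm4 the lowest of the 11 markers at a mean of 16.0, and 3 of the 11 were called higher and 0 lower. Summed neutrophil markers ranged from 655 to 1509 in Ctrl and from 5488 to 17926 in cKO, and 6 of the 7 tested of 9 listed were called higher. In bulk RNA of this kind, fewer cells of a type and less RNA per cell cannot be told apart.

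One library stood apart for these genes. In cKO replicate 2 the median member lay at -0.22 on the log2 scale relative to its Ctrl mean, against 0.04, 0.07 and 0.06 in cKO replicates 1, 3 and 4. It was the lowest cKO library for 56 of the 76 genes. The low level was not particular to the members. In the same library the median mitochondrial translation factor gene lay at -0.26. The median gene for assembly and RNA modification of this ribosome lay at -0.17, and the median of all tested genes at -0.0025. The same library had the highest neutrophil sum, 17926 normalized counts, and the lowest sums of macrophage markers (1842), T cell markers (407) and stromal markers (523) among all 8 libraries. The part of these values in its low median was not tested. Results below are therefore given with and without it where it matters.

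Most mitochondrial ribosomal protein genes differed little between the groups. Of the 76 genes, 2 were higher and 4 lower in the libraries labelled cKO, or 7.89%, against 11.7% of all tested genes (5.65% higher and 6.07% lower). Mrpl20 and Mrps18b were the higher genes, and Mrps9, Mrpl48, Mrps35 and Mrps31 the lower ones. Fold changes were positive for 35 genes and negative for 41, with a median of -0.015 against -0.0060 over all tested genes, and ran from -0.86 for Mrpl48 to 0.60 for Mrpl20. Scaled to library totals instead, 50 were positive and 26 negative, with a median of 0.07 against 0.075 over all tested genes, so the sign of these medians depends on the scaling. The median absolute change was 0.12 for the members and 0.25 for all tested genes.

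The members were also measured more closely than the typical gene. Their median level in Ctrl was 989.9 normalized counts against 435 for all tested genes. Their median SE was 0.11, against 0.18 over all tested genes. For 69 of the 76 genes, the 95% interval of the difference lay within 1.5-fold in both directions, which held for 40.5% of all tested genes. The exceptions were Mrpl20, Mrpl48, Mrps9, Mrps18b, Mrps23, Mrps25 and Mrps31. The groups did not overlap for 10 members, 5 higher and 5 lower, against 19.9% of all tested genes (9.54% higher and 10.3% lower). Beside the called genes without overlap, these were Mrpl28, Mrpl33 and Mrpl57 above Ctrl and Mrpl55 below it.

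**Figure D1:**
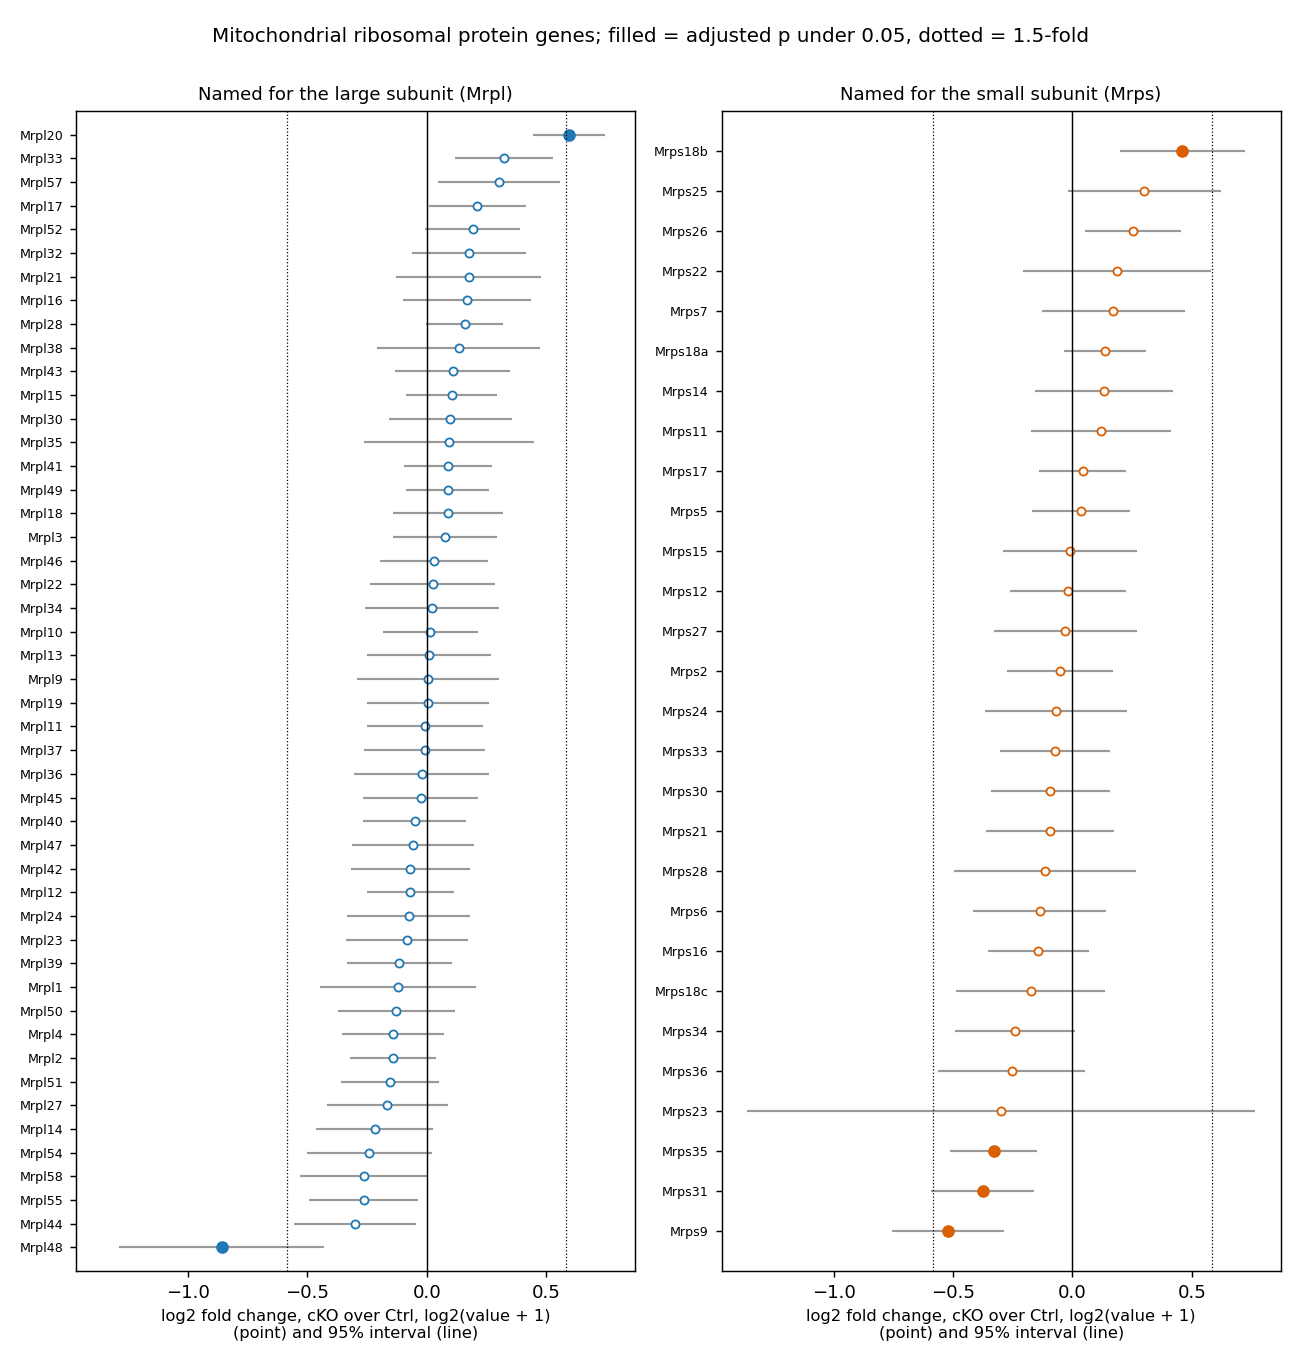
Log2 fold change of each of the 76 genes (cKO over Ctrl, log2(value + 1) scale), with the 48 Mrpl genes in one panel and the 28 Mrps genes in the other. Points are estimates, lines are 95% intervals, filled points are called genes and dotted lines mark 1.5-fold; most intervals sit between the dotted lines, with Mrpl20 at 0.60 and Mrpl48 at -0.86 at the ends.

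Set against each other, the subunits had 1 higher and 1 lower of 48 Mrpl genes (4.17%), and 1 higher and 3 lower of 28 Mrps genes (14.3%), beside 11.7% of all tested genes. The median log2 fold change was 0.0057 for Mrpl and -0.060 for Mrps. Positive fold changes were found in 25 of 48 Mrpl genes and 10 of 28 Mrps genes. The intervals lay within 1.5-fold for 46 Mrpl and 23 Mrps genes. The difference between the subunits was not tested. Without cKO replicate 2 the medians were 0.08 for Mrpl and 0.03 for Mrps, and with library-total scaling 0.09 and 0.02, so that the Mrps median turned positive in both.

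The name of a gene does not always give its subunit. Mrps18a and Mrps30 encode proteins of the large subunit, and the Mrps36 protein belongs to the oxoglutarate dehydrogenase complex. Sorted by structure, 50 genes of the large subunit had a median of 0.0057 and 25 of the small subunit a median of -0.051, with the same genes called. Mrps18a had a log2 fold change of 0.13 ± 0.08 (adjusted p = 0.283), Mrps30 of -0.09 ± 0.11 (0.635) and Mrps36 of -0.25 ± 0.14 (0.255).

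Library by library, the median Mrpl gene lay at -0.01, -0.02, 0.09 and -0.04 relative to its Ctrl mean in Ctrl replicates 1 to 4, on the log2 scale. It lay at 0.10, -0.21, 0.10 and 0.06 in cKO replicates 1 to 4. The median Mrps gene lay at -0.00, -0.01, 0.08 and -0.05 in Ctrl and at 0.01, -0.25, 0.05 and 0.07 in cKO. Both subunits were thus high in Ctrl replicate 3 and low in cKO replicate 2 together. The difference Mrpl minus Mrps stayed between -0.01 and 0.01 in the Ctrl libraries, was 0.09, 0.04 and 0.05 in cKO replicates 1 to 3, and was -0.01 in cKO replicate 4. Each gene is measured from its own Ctrl mean, so the Ctrl values centre near 0 by construction. The ratio of mean levels per kb of gene length, Mrpl over Mrps, was 1.40, 1.34, 1.36 and 1.35 in Ctrl and 1.42, 1.48, 1.38 and 1.39 in cKO, so that the groups overlapped.

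**Figure D2:**
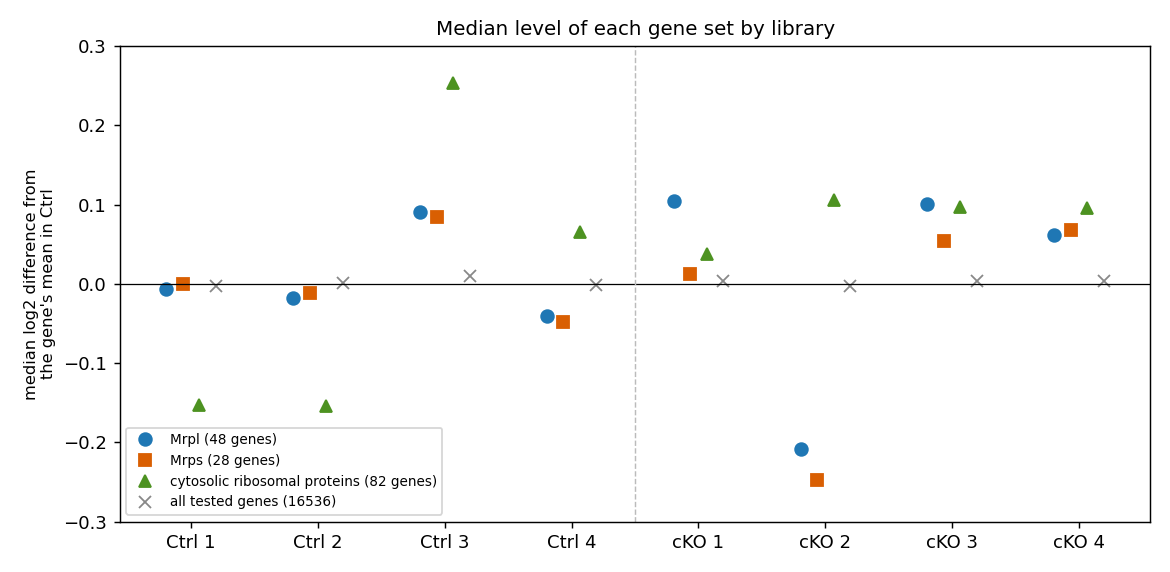
Median log2 difference of each gene set from the genes' own means in Ctrl (vertical axis), for the 8 libraries (horizontal axis), with 1 marker shape per set. The Mrpl and Mrps points lie close together in each library and are lowest at cKO replicate 2 (-0.21 and -0.25).

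Among proteins of the large subunit, Mrpl20 showed the clearest rise. Mrpl20 (ENSMUSG00000029066, chromosome 4, 155802878 to 155809975 on the plus strand) is the homologue of bacterial L20, an early-assembling protein that binds the large ribosomal RNA. Ctrl replicates 1 to 4 had 1050.0, 1111, 1125 and 1099 normalized counts of it, and cKO replicates 1 to 4 had 1688, 1622, 1627 and 1695. The groups were far apart and the libraries within each were close, with SDs of 32.5 and 38.7. The mean rose from 1096 to 1658 (log2 fold change 0.60 ± 0.07, 95% interval 0.45 to 0.75, adjusted p = 0.00286), and Mrpl20 was called in 20 of 20 alternative settings (adjusted p between 2.91e-16 and 0.0134). In cKO replicate 2, where most members were low, it was at 1622. Mrpl20 lies 7.18 Mb from Tardbp on the same chromosome. Within 10 Mb of Tardbp, 14.3% of 210 tested genes were called, against 13.04% of 782 on the rest of chromosome 4.

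Mrpl48 had the largest fall. Mrpl48 (ENSMUSG00000030706, chromosome 7, 100545751 to 100608301 on the minus strand) encodes a mitochondria-specific protein of the central protuberance, the crown of the large subunit. It had 813, 761, 1093 and 968 normalized counts in Ctrl, and 562, 406, 668 and 396 in cKO. The groups did not overlap, but both were spread, with Ctrl replicates 3 and 4 high and cKO replicates 2 and 4 low. Its mean fell from 909 ± 151 to 508 ± 131 (log2 fold change -0.86 ± 0.19, 95% interval -1.29 to -0.43, adjusted p = 0.0230). It was called in 17 of 20 alternatives (adjusted p between 0.000951 and 0.0688) and lost the call without Ctrl replicate 3, Ctrl replicate 4 or cKO replicate 4. Its exons share 8.70% of their bases with Rab6a on the opposite strand, whose own log2 fold change was 0.18 (adjusted p = 0.213). The pseudogene Mrpl48-ps, to which similar reads could be assigned, had 22.8 ± 4.04 in Ctrl and 13.002 ± 5.10 in cKO.

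Mrps9 led the small subunit. Mrps9 (ENSMUSG00000060679, chromosome 1, 42851233 to 42905683 on the plus strand) is the homologue of bacterial S9, a protein of the head of the small subunit. It had 1312, 1395, 1447 and 1298 normalized counts in Ctrl, and 880.0, 1069, 1046 and 820.4 in cKO. The highest cKO library, replicate 2, was below the lowest Ctrl library. Its mean fell from 1363 ± 70.5 to 954 ± 122 (log2 fold change -0.52 ± 0.10, 95% interval -0.75 to -0.29, adjusted p = 0.0161). Of 20 alternatives, 19 kept the call (adjusted p between 0.000336 and 0.0541), the exception being the fit without Ctrl replicate 3.

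Mrps35 and Mrps31, both mitochondria-specific proteins of the small subunit, fell by less. Mrps35 (ENSMUSG00000040112, chromosome 6, 147042764 to 147073991 on the plus strand) had 1376, 1231, 1350.0 and 1350.2 normalized counts in Ctrl, and 1084, 1137, 1032 and 972 in cKO. Ctrl replicate 2 came nearest to the cKO range. The mean went from 1327 ± 65.1 to 1056 ± 70.8 (log2 fold change -0.33 ± 0.08, adjusted p = 0.0318). It was called in 10 of 20 alternatives (adjusted p between 0.00354 and 0.0868), and the call was lost without Ctrl replicate 1, 3 or 4 or cKO replicate 1, 3 or 4. Mrps31 (ENSMUSG00000031533, chromosome 8, 22411361 to 22429665 on the plus strand) had 1019.6, 959, 984 and 908 in Ctrl, and 752, 696, 856 and 685 in cKO. Its groups did not overlap, with cKO replicate 3 nearest to Ctrl. The mean went from 968 ± 46.9 to 747 ± 78.4 (log2 fold change -0.38 ± 0.09, adjusted p = 0.0354). It was called in 11 of 20 alternatives (adjusted p between 0.00608 and 0.0945), and lost the call without any single Ctrl replicate (1, 2, 3 or 4) and without cKO replicate 1 or 4.

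Mrps18b was the higher gene of the small subunit. Mammals have 3 proteins related to bacterial S18, and that of Mrps18b (ENSMUSG00000024436, chromosome 17, 35910379 to 35916389 on the minus strand) takes a mitochondria-specific place in the small subunit. It had 447, 414, 493 and 407 normalized counts in Ctrl, and 651, 516, 589 and 672 in cKO. The lowest cKO library, replicate 2, was just above Ctrl replicate 3. The mean rose from 440.1 ± 39.0 to 607 ± 70.2 (log2 fold change 0.46 ± 0.12, 95% interval 0.20 to 0.72, adjusted p = 0.0358). It was called in 10 of 20 alternatives (adjusted p between 0.00387 and 0.0957), and lost the call without any single Ctrl replicate (1, 2, 3 or 4) and without cKO replicate 1, 3 or 4. The antisense gene Gm16279 covers 30.5% of its exon bases, and no label states whether the counting used strand, so reads of the pair may be mixed. The paralog Mrps18c, which takes the bacterial S18 place, had a log2 fold change of -0.18 ± 0.14 (adjusted p = 0.452).

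**Figure D3:**
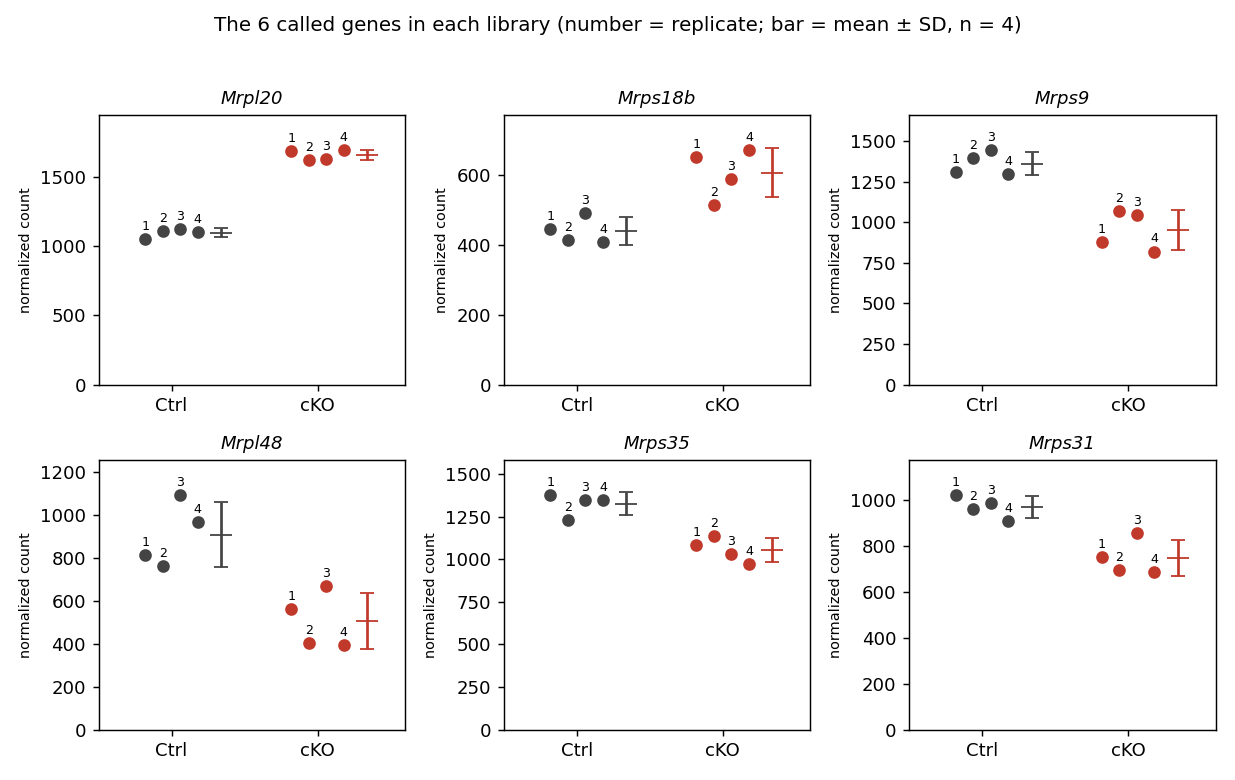
Normalized counts (vertical axis, from 0) of the 6 called genes in each library, with the replicate number above each point and bars for mean ± SD (n = 4). In every panel the Ctrl and cKO points are separate; the gap is widest against the spread for Mrpl20 and narrowest for Mrps18b, where 493 in Ctrl replicate 3 lies below 516 in cKO replicate 2.

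Without cKO replicate 2, 5 members were higher and 4 lower, and the median over all 76 moved to 0.05. Mrpl57, Mrps25 and Mrps26 were then called beside Mrpl20 and Mrps18b. With each other library left out the calls were fewer, at 1 higher and 0 lower without Ctrl replicate 3. They were 1 and 2 without Ctrl replicate 1, 1 and 3 without Ctrl replicate 2, and 1 and 1 without Ctrl replicate 4. Without cKO replicates 1, 3 and 4 they were 1 and 2, 1 and 3, and 1 and 1. Over all tested genes, 1350 were higher and 1382 lower without cKO replicate 2, against 935 and 1004 with it. With each other library left out, calls over all tested genes were fewer too. They ran from 376 higher and 390 lower without Ctrl replicate 3 to 824 and 931 without cKO replicate 3. The loss of calls was thus not particular to the members.

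Of the uncalled members, only Mrpl33 lay near the threshold. Mrpl57, Mrps25 and Mrpl44 are given after it for the size of their fold changes. Mrpl33, the homologue of bacterial L33, had 829.8, 875, 959.7 and 861 normalized counts in Ctrl and 994, 1214, 1054 and 1155 in cKO. Its groups did not overlap, and its log2 fold change was 0.32 ± 0.09 (adjusted p = 0.0515; called in 5 of 20 alternatives). In the authors' deposited table its adjusted p was 0.0249. That table called 3 members higher and 4 lower, which are Mrpl33 and the 6 genes called here. The share of all genes called by the authors' test is not given here, so these counts have no background beside them. Mrpl57, a small mitochondria-specific protein of the large subunit, had 1365, 1249, 1362 and 1279 in Ctrl and 1534, 1384, 1614 and 2005 in cKO (0.30 ± 0.11, adjusted p = 0.116). Mrps25 ran from 702 to 902 in Ctrl and from 769 to 1190.3 in cKO (0.30 ± 0.14, adjusted p = 0.204), and shares 69.8% of its exon bases with Nr2c2 on the opposite strand. Mrpl44, a protein with a ribonuclease III fold beside the exit tunnel, had a log2 fold change of -0.30 ± 0.11 (adjusted p = 0.120). Other members had a lower adjusted p than Mrps25, among them Mrps26 (0.25 ± 0.09, adjusted p = 0.101) and Mrpl55 (-0.26 ± 0.10, adjusted p = 0.121).

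Groups by origin are small, and their calls are read beside the 11.7% of all tested genes called. In the large subunit, 29 proteins with a bacterial homologue had 1 higher and 0 lower (3.45%) and a median log2 fold change of 0.01. The 19 mitochondria-specific proteins of the large subunit had 0 higher and 1 lower (5.26%) and a median of -0.05. In the small subunit, 15 bacterial homologues had 0 higher and 1 lower (6.67%) and a median of -0.05, and 10 mitochondria-specific proteins had 1 higher and 2 lower (3 of 10, above that share) and a median of -0.05. The called genes of the last group, Mrps18b, Mrps31 and Mrps35, thus moved in both directions. Their calls held in 10, 11 and 10 of 20 alternatives, and 10 genes are too few to show a difference from 11.7%. By place in the large subunit, the 8 proteins on the side of the exit tunnel had 0 called genes and a median of -0.07, and the 7 of the central protuberance had 1, Mrpl48.

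The stalk recruits translation factors to the large subunit, and 0 of its 3 tested genes were called. Beside the 11.7% of all tested genes called, 3 genes are too few to show a difference. Mrpl12, the main protein of the stalk, had 2427, 2410.3, 2530.4 and 2361 normalized counts in Ctrl and 2310.4, 2068, 2557 and 2364 in cKO. The groups overlapped, and the log2 fold change was -0.07 ± 0.08 (adjusted p = 0.626). Mrpl10, which anchors Mrpl12, had 0.01 ± 0.09 (adjusted p = 0.930), and Mrpl11, at the base of the stalk, had -0.01 ± 0.11 (adjusted p = 0.973).

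Levels per kb of gene length, which allow genes to be compared, spanned a wide range in Ctrl. The median was 498 normalized counts per kb for Mrpl genes and 291 for Mrps genes. The highest genes were Mrps21 (2228 ± 252), a homologue of bacterial S21, Mrpl34 (2058 ± 307), Mrpl52 (1647 ± 104), Mrpl12 (1588 ± 46.6) and Mrpl14 (1455 ± 128). Of these, Mrps21 and Mrpl34 differed by less than either SD, and Mrpl52 and Mrpl12 by less than the SD of Mrpl52 but more than that of Mrpl12. The lowest were Mrps23 (38.5 ± 23.4), Mrps30 (70.3 ± 4.25), Mrpl48 (111 ± 18.5), Mrpl33 (120.3 ± 7.58) and Mrps25 (125 ± 13.02). The gene length used is that of all annotated exons together, so genes with long alternative exons come out low.

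Mrps23 was uneven as well as low. It had 91.3, 23.1, 34.1 and 91.6 normalized counts in Ctrl and 33.8, 34.1, 37.1 and 66.7 in cKO. The Ctrl libraries fell into a high and a low pair, and the interval of its log2 fold change, -1.36 to 0.76, leaves the direction undetermined.

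**Figure D4:**
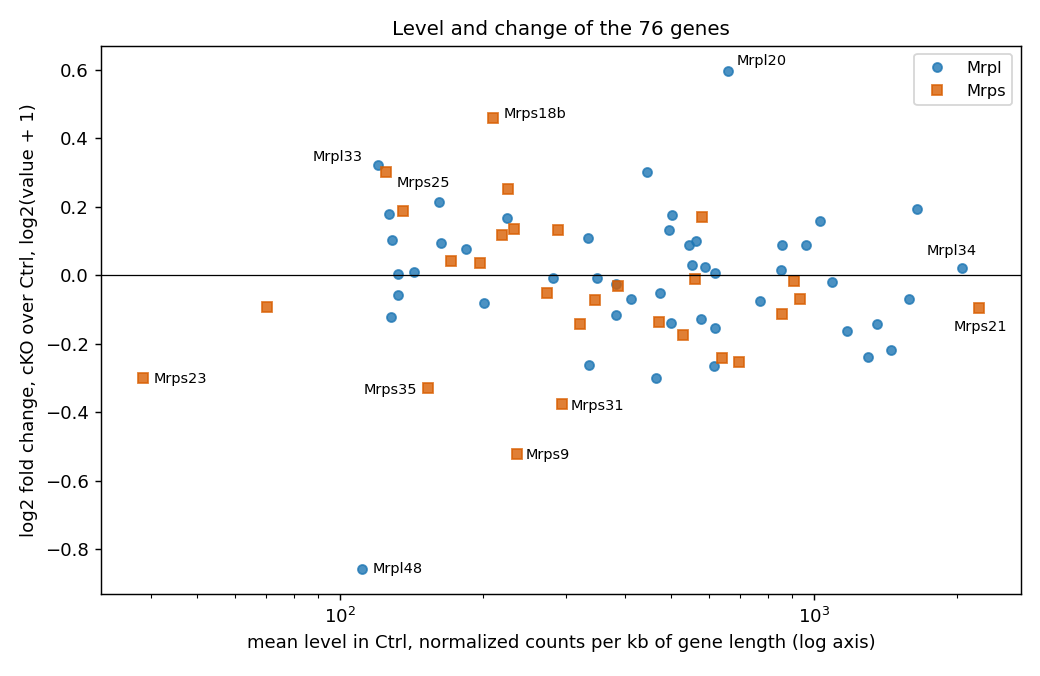
Log2 fold change (cKO over Ctrl, log2(value + 1) scale) against the mean level in Ctrl in normalized counts per kb of gene length (log axis), 1 point per gene, coloured by subunit name. The called genes run from Mrpl48 at 111 to Mrpl20 at 659 (ranks 74 and 19 by level), and the 5 highest genes lie between -0.22 and 0.19.

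Promoters are shown for the called genes that changed most and for members that carry known motifs. RefSeq promoters on GRCm38.p6, from 250 bases before to 50 after the start site, were matched to 63 of the 76 members (39 Mrpl and 24 Mrps). Nuclear respiratory factors, among them the ETS family factor GABP and NRF1, are known to drive genes of mitochondrial proteins. The letters searched on both strands were CCGGAAG for the ETS core, GCATGCG for NRF1 and AAGATGG for YY1, the cores of longer motifs. Longer forms of the NRF1 and YY1 letters had been counted first, and the cores were taken after those counts were seen. Matches can share bases: the ETS core and the NRF1 letters each with their own reverse complement, and the ETS core with the YY1 letters. The 150 bases before the start site are printed for 6 genes, with matches in capitals.
Mrpl20, chr4:155802728-155802877, plus strand: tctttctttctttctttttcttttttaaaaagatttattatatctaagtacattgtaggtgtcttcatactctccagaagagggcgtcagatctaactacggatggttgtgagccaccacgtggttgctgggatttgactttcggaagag
Mrps9, chr1:42851083-42851232, plus strand: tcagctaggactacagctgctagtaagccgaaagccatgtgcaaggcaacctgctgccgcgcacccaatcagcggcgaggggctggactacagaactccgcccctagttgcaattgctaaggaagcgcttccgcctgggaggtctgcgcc
Mrpl48, chr7:100608302-100608451, minus strand: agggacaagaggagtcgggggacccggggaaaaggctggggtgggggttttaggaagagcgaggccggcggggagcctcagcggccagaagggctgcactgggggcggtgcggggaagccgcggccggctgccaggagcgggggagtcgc
Mrpl52, chr14:54426759-54426908, plus strand: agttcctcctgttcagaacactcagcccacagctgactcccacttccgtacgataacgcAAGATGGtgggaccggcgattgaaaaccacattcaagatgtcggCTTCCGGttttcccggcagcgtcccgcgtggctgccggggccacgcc
Mrpl43, chr19:45006443-45006592, minus strand: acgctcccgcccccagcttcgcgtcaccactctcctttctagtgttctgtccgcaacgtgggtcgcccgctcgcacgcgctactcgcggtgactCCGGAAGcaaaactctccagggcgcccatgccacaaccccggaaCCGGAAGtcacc
Mrpl9, chr3:94443186-94443335, plus strand: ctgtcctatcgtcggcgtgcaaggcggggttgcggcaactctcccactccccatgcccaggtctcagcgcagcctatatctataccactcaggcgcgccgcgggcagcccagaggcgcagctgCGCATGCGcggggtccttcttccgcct

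The first 3 sequences hold none of the 3 motifs, and the last 3 belong to uncalled genes with a match. In Mrpl52 the ETS core starts 47 bases before the start site, on the minus strand, and the YY1 letters 91 bases before it. In Mrpl43 the ETS core starts 56 and 12 bases before it. The NRF1 letters in Mrpl9 start 27 and 26 bases before it, on either strand and overlapping. Over the 300-base window, 22 of 63 member promoters held the ETS core (34.9%), against 15.4% of 11992 promoters of protein-coding genes in the table. The share was 30.8% for Mrpl and 41.7% for Mrps. NRF1 letters were found in 11.1% of member promoters against 5.73%, and YY1 letters in 15.9% against 6.81%. Any of the motifs was found in 31 members (49.2%) against 25.2%, at a median GC content of 58.7% and 59.7%. The comparison promoters were not limited to genes that passed the filter on low values, as all members did. The part of this in the differing shares was not tested. Of the 5 called genes with a promoter, 1 held a motif, Mrps18b, whose ETS core starts 43 bases past the start site and which also holds NRF1 letters. Mrps35 was not matched. A match describes letters in the window and is not a binding site.

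Many members also face another gene. A protein-coding gene starts on the other strand within 1000 bases of the start of 32 of the 76 members (42.1%), against 15.0% of 13415 tested protein-coding genes. They were 24 of 48 Mrpl genes and 8 of 28 Mrps genes (28.6%). Mrps11 and Mrpl46 face each other, 1 from each subunit, and neither was called (0.12 and 0.03). Of the 30 partners tested, 2 were higher and 2 lower (13.3%, near the 11.7% of all tested genes), and in each of these 4 pairs the member was uncalled. The higher partners were the chaperonin subunit Tcp1 beside Mrpl18 and the helicase Ighmbp2 beside Mrpl21. The lower ones were the phospholipase Pnpla7 beside Mrpl41 and Ptcd2, a mitochondrial RNA-processing protein (-0.86), beside Mrps27 (-0.03). Partners were named after their values were seen.

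The mitochondrial ribosome also holds proteins without an Mrp name. Of 5 such genes, the small-subunit genes Dap3 (-0.06), Ptcd3 (0.04), Aurkaip1 (-0.15) and Chchd1 (-0.12) and the large-subunit gene Gadd45gip1 (-0.15), 0 were called. That set is too small to show a difference from the 11.7% of all tested genes called. The mitochondrial ribosomal RNAs were uneven. Mt-Rnr1, of the small subunit, had 12628, 9361, 6627 and 8324 normalized counts in Ctrl and 3749, 3932, 17610.0 and 4481 in cKO. Mt-Rnr2, of the large subunit, had 17231, 12970.4, 11899 and 13112 in Ctrl and 4256, 5716, 36799 and 8233 in cKO. In both, cKO replicate 3 was the highest of the 8 libraries and the other 3 cKO libraries were below every Ctrl library, and neither gene was called (log2 fold change -0.62 ± 0.49 and -0.56 ± 0.62, adjusted p = 0.462 and 0.606). Without cKO replicate 3, the cKO library that ran the other way, both were called lower in limma (adjusted p = 0.0123 and 0.0147). These p-values do not account for the choice of that library. With all 8 libraries, the log2 fold change of mt-Rnr2 was 0.0004 in edgeR and -0.003 in DESeq2.

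Genes that act on this ribosome were counted next, beside the same 11.7% of all tested genes. Of 15 tested translation factors, 0 were higher and 1 was lower (6.67%), with a median of -0.05. Taco1, which activates translation of the mitochondrial mRNA mt-Co1, had 533, 507, 532 and 483 normalized counts in Ctrl and 414, 268, 417 and 294 in cKO. All 4 cKO libraries were below all Ctrl libraries (log2 fold change -0.59 ± 0.16, adjusted p = 0.0454). The call held in 10 of 20 alternatives and was lost without any single Ctrl replicate (1, 2, 3 or 4) and without cKO replicate 2 or 4 (adjusted p up to 0.114).

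Of 26 tested assembly and RNA modification factors, 0 were higher and 1 was lower (3.85%), with a median of -0.0005. Mettl15, which methylates the small-subunit RNA, had 117, 114, 132 and 134 normalized counts in Ctrl and 48.4, 39.0, 66.3 and 21.6 in cKO. The highest cKO value was below the lowest Ctrl value, and the log2 fold change was -1.59 ± 0.31 (adjusted p = 0.0156). It was larger in size than that of any of the 76 members, and the call was lost in 1 of 20 alternatives, without Ctrl replicate 3 (adjusted p = 0.0510).

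Products and counterparts of the ribosome were looked at last. Of the 13 mRNAs of the mitochondrial genome, 0 were higher and 1 was lower (7.69%, against 11.7% of all tested genes). The lower one was mt-Co1 (from 683955 ± 120275 to 425174 ± 95907, log2 fold change -0.70 ± 0.19, adjusted p = 0.0443). The call of mt-Co1 was lost without any single Ctrl replicate (1, 2, 3 or 4) and without cKO replicate 1 or 4 (adjusted p up to 0.113). The median of the 13 was 0.29, with 11 positive, and the lowest value, in an uncalled gene, was -1.13. Of 82 tested proteins of the cytosolic ribosome, 1 was higher and 0 lower (1.22%, beside the same 11.7%), with a median of 0.07. The called gene, Rpl7l1, resembles Rpl7 and was matched by its name (0.39 ± 0.10, adjusted p = 0.0310). Its call was lost without any single Ctrl replicate (1, 2, 3 or 4) and without cKO replicate 1 or 4 (adjusted p up to 0.0853). In cKO replicate 2, mitochondrial ribosomal protein genes, translation factors and assembly factors were low. The median cytosolic ribosomal protein gene lay at 0.11 relative to Ctrl in that library. It lay at 0.04, 0.10 and 0.10 in cKO replicates 1, 3 and 4, and between -0.15 and 0.25 in the Ctrl libraries. The value in cKO replicate 2 was thus within the range of the other libraries.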

How the data were processed

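Crypt RNA of 8 mice, 4 Ctrl and 4 cKO, was analysed, grouped by sample title. Per the submitters' processing notes, HISAT2 2.0.5, featureCounts 1.5.0-p3 and CASAVA were used. The deposited table holds a normalized signal value for each gene in each library, made by the authors from gene counts. Division by each library's step gave whole reads for 100% of values (tolerance 0.0001 reads). The deposited table also gives gene lengths, and the authors' own log2 fold change, p-value and adjusted p-value from an unnamed test. Of its identifiers, 98.9% were in GENCODE M21, and 99.5% of these had identical coordinates. Same-group libraries differed beyond sampling noise (chi-square of at least 29.3 per degree of freedom).

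The two-sided test was limma 3.58.1, with robust and trended eBayes, on log2(value + 1) of genes with a mean of at least 10, with Benjamini-Hochberg adjustment. The test was tried on simulated counts, in which libraries of a group differed by depth and random spread alone. No library stood apart there as cKO replicate 2 does here. The outcome is not given, and no result rests on it. The added 1 understates changes of low genes. edgeR 4.0.16 (960 higher, 922 lower) and DESeq2 1.42.0 on recovered reads were alternatives, with other pseudocounts, filters, scalings, a replicate block and each library left out. Members and lists were chosen with earlier results of these data known. The rule named Tardbp, called members, the 5 highest and 5 lowest by fold change and by level per kb, members of the lists for the stalk, for genes whose name does not give their place and for Mrp-less ribosomal proteins, the Mrps18 genes, up to 3 members by adjusted p of each other list, and members with 1 outlying library. Other genes were named after their values were seen. Software was Python 3.11.15 (pandas 2.3.3, numpy 2.4.6, matplotlib 3.10.9) and R 4.3.3.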

Additional observations from a re-analysis of the deposited data

Results flagged for a closer look

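In each group of 4 libraries, the highest and lowest value of each member were compared with the other 3 (152 groups in all), and a library was listed where its gap to the nearest other exceeded Dixon's 95% critical value. Chance flags about 1 in 20 groups. In cKO replicate 2, Mrpl39 was low at 768 normalized counts (the others 936 to 941), as were Mrps2 at 654 (808 to 823), Mrpl13 at 913 (1209 to 1247) and Mrpl11 at 737 (948 to 984). The median log2 difference of all members from their Ctrl means was low in the same library, at -0.22 (0.04 to 0.07 in the others). Mrps23 was high in cKO replicate 4, at 66.7 normalized counts (33.8 to 37.1 in the others). No Ctrl group was listed.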

How the results depend on the processing

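Over 20 other settings, the medians of the members and of both subunits moved by less than the spread between libraries (SD 0.11). That SD comes from the same libraries, cKO replicate 2 among them. Leaving out 1 library could hardly move a median by more, so those settings do not test its stability. The medians lie near 0 and their signs turned. With library-total scaling the medians were 0.067 for all members, 0.0873 for Mrpl and 0.022 for Mrps, and 15 of 76 members changed sign. With 1 library left out they ran from -0.0515 to 0.0485, -0.0324 to 0.0821 and -0.0897 to 0.0321. Calls are given as higher and lower members, 2 and 4 as reported. They were 1 and 2 with no filter beyond a mean above 0 or limma without trend and robust estimation, and 4 and 2 with library-total scaling, where all genes had 1327 and 740 calls against 935 and 1004. Mrps calls, 1 and 3 as reported, were 0 and 1, 0 and 1, and 2 and 1 in these. Mrpl had 2 higher, not 1, with that scaling, upper-quartile scaling, a mean of at least 50, protein-coding genes alone and DESeq2, which called 1509 and 1492 of all genes. Leaving out members that share over 20% of exon bases, chosen after seeing the data, left 1 higher. With the replicate number as a block, 1 member was higher and 3 lower, and 0 Mrps were higher, over all genes 821 and 924. Same-number correlations were 0.318, -0.106, 0.123 and 0.323, and those between different numbers ran from -0.324 to 0.242. Whether the numbers mark pairs cannot be settled from these values. Leaving out 1 library gave 1 to 5 members higher and 0 to 4 lower, Mrpl 1 to 2 and 0 to 1, Mrps 0 to 3 and 0 to 3, and all genes 376 to 1350 and 390 to 1382. Of the genes named by rule, those whose sign reversed were uncalled: Mrpl12 (0.0129), Dap3 (0.0186), Mrps2 (0.0309) and Mrpl11 (0.0747) with library totals, Mrpl11 with upper quartiles, edgeR and DESeq2 (0.0087, 0.0053, 0.0046), and mt-Rnr2 with edgeR (0.0004). Leaving out 1 library gave both signs for Mrpl34 (-0.0894 to 0.0865), Mrpl10 (-0.0513 to 0.0589), Mrpl11 (-0.0482 to 0.0906), Mrpl13 (-0.0346 to 0.118), Mrps2 (-0.0821 to 0.0283) and Chchd1 (-0.2215 to 0.0203). The causes were not tested. With 4 libraries a group, intervals of low genes such as Mrps23 stay wide.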
